A study of Mus musculus with 16 samples.

Results

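Some probe sets of the array are annotated to several genes of interferon-inducible families, so their signal cannot be credited to a single gene. The probe sets described here were those whose annotation listed more than 1 gene symbol, at least 1 of them beginning with H2-, Gbp, Igtp, Irgm, Tgtp, Oas, Ifi, Isg, Trim, Slfn or Phf11. The rule used names only and found 23 of the 24922 probe sets, among 1399 with several symbols. They carried 48 symbols: 17 probe sets had 2 symbols, 5 had 3 and 1 had 6. No Slfn or Phf11 gene was among them. By role they were 6 probe sets of interferon-inducible GTPases, 6 of TRIM proteins, 7 of MHC class I, 2 of nucleic acid sensing proteins, 1 of ISG15 and 1 of MHC class II. Each is kept apart below and called by all its symbols. Tgtp2/Tgtp1 were listed on 2 probe sets, H2-K1/LOC547349/H2-D1 on 2, and Trim5/Trim12c on 2 (1 of them with Trim12a), so these pairs are not independent of each other.

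Type I interferon binds a receptor of IFNAR1 and IFNAR2 chains, whose kinases JAK1 and TYK2 start the signal. The complex ISGF3, which includes IRF9, then binds interferon-stimulated response elements (ISRE) in the promoters of induced genes, while GAS elements are best known from the response to interferon gamma. Many of the induced genes lie in clusters of related genes. H2aw/Trim17, Gm38525/Trim30b and Trim61/Trim60 overlap each other in the annotation, and Olfr56, an olfactory receptor gene, is no relative of Ifi47.

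RNA of sorted cells from male mice was measured on 16 Affymetrix Mouse Gene 1.0 ST arrays, 2 for each of 8 groups. Macrophages (ICAM2+ F4/80+, peritoneal cavity) came from mice of the strain B6.129S2-Ifnar1tm1Agt/Mmjax, which carry a disrupted Ifnar1 (here KO), aged 6 weeks, and from B10.Q/J mice aged 7 weeks. CD4 T cells (TCRB+ CD4+ CD8-, spleen) came from B10.Q/J mice. KO macrophages were taken 2 h after IFNα (10000 units under the skin) or, per their titles, without it. B10.Q cells of both kinds were taken 2 h or 5 h after IFNα or after vehicle, and each vehicle pair joined 1 array of 2 h and 1 of 5 h. B10.Q mice carry a natural mutation of Tyk2 and the q haplotype of H2, so no array came from mice with both genes intact. Line, age, H2 haplotype and kind of control (vehicle in B10.Q only) cannot be told apart between KO and B10.Q arrays. For the KO arrays whose titles name no IFNα, the text on preparation does state an injection at 2 h. In addition 5 of 6 B10.Q macrophage titles carry a code for spleen, and 1 T-cell vehicle title begins with B. Groups followed the titles and the cell type labels.

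Levels are log2 of the deposited intensity, and each level belongs to its own probe set and is compared only with the same probe set on other arrays. Array medians ran from 7.44 to 7.60. The 8 peritoneal macrophage markers averaged 11.97 to 12.54 in the macrophage arrays and 7.10 to 7.20 in the vehicle and 5 h T-cell arrays, but 8.87 and 7.77 in the 2 T-cell arrays with IFNα for 2 h. CD4 T-cell markers averaged 11.89 to 12.08 in T cells and 6.06 to 6.44 in macrophages. B-cell markers averaged 7.65 and 7.41 in the KO arrays numbered 1 and 6.80 and 6.92 in those numbered 2. Neutrophil markers averaged 6.94 and 6.13 in KO arrays 1 and 2 without IFNα, and 6.35 and 5.98 in those with it. In B10.Q arrays they averaged 5.84 to 6.09. Dendritic-cell markers averaged 7.25 to 7.51 in KO macrophages, 7.28 to 7.45 in B10.Q macrophages and 6.54 to 6.65 in T cells. The Ifnar1 probe set read 9.93 to 10.31 in KO macrophages and 10.09 to 10.46 in B10.Q macrophages, and a disrupted transcript can still be read by probes outside the altered part, so this does not check the labels. Of the 23 shared probe sets, 11 lay above the median of every array, 9 above that of some arrays and 3 above that of none (H2-T3/H2-T18, Trim61/Trim60 and Trim43b/Trim43c/Trim43a).

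The promoters of genes behind the shared probe sets were compared for their sequence and for 2 interferon-related motifs. RefSeq promoters (GRCm38.p6, 250 bases before to 50 after the start) were given for 30 of the 48 genes, as 31 promoters. Both strands were searched for GAAANNGAAA, the core of an ISRE (TTTCNNTTTC on the other strand), and for the GAS letters TTCNNNGAA, which read the same on both strands. ISRE letters stood in 15 of the 31 promoters (48.4%), against 1131 of all 32851 (3.44%). GAS letters stood in 6 of 31 (19.4%), against 8.30% of all. The genes were picked by interferon-family names and some of the 31 promoters are near copies, so these shares only describe them. Trim60 and Trim61 were given the same window, which is counted for each. Below are the 150 bases before the start, 5′ to 3′ on the gene's strand, with matches of either motif in capitals. They belong to 4 called probe sets (Oas1a/Oas1g, Isg15/Gm9706, Irgm2/Igtp and Trim5/Trim12c) and to the Tgtp2/Tgtp1 pair, which was not called against control but had the widest differences.
Oas1a (chr5:120907526-120907675, minus strand): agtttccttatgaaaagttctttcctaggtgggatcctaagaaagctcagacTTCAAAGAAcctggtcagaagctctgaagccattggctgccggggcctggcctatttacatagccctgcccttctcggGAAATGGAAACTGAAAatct
Oas1g (chr5:120887614-120887763, minus strand): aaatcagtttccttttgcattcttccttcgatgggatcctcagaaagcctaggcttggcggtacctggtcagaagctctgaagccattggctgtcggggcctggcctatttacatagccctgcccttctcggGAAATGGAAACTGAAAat
Isg15 (chr4:156200819-156200968, minus strand): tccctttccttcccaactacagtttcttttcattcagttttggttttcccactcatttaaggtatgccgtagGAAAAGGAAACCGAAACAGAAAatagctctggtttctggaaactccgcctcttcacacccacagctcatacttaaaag
Igtp (chr11:58199406-58199555, plus strand): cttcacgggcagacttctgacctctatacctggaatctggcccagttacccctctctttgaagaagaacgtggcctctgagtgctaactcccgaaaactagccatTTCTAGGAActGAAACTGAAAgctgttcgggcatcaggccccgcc
Irgm2 (chr11:58214827-58214976, plus strand): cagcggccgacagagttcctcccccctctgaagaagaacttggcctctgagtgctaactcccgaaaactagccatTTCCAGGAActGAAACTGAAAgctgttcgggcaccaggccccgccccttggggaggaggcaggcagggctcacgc
Tgtp1 (chr11:48992247-48992396, minus strand): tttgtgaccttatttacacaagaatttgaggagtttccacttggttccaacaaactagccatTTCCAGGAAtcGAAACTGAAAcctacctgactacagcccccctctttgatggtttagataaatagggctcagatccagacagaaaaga
Tgtp2 (chr11:49064213-49064362, minus strand): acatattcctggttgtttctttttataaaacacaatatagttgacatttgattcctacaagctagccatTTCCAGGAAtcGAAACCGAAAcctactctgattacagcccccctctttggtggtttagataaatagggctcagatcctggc
Trim5 (chr7:104288107-104288256, minus strand): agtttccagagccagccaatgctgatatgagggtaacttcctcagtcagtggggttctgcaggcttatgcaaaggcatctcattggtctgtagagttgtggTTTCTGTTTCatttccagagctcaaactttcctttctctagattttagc
Trim12c (chr7:104353350-104353499, minus strand): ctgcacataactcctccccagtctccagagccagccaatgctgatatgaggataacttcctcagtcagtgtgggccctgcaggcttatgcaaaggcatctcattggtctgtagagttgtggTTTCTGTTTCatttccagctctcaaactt

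Oas1a and Oas1g, neighbours on chromosome 5 with no protein-coding start between them, were 85.3% identical over the aligned promoters, Trim5 and Trim12c 82.8%, Irgm2 and Igtp 73.5% and Tgtp2 and Tgtp1 67.7%. Among the other pairs H2-T-ps and H2-T23 were 85.9% identical and Trim12c and Trim12a 72.9%. Trim61 and Trim60 were given the same promoter window (chr8:65018689-65018838, minus strand), so their 100% only compares that stretch with itself. The lowest were 50.4% for Gm38525 and Trim30b, 49.7% for Olfr56 and Ifi47 and 49.6% for Gbp2 and Gbp2b. Oas1a and Oas1g each held 2 overlapping ISRE matches. These began 20 and 14 bases before the start in Oas1a and 18 and 12 bases in Oas1g. Isg15 held 3 overlapping matches from 78 bases before the start. Igtp and Irgm2, neighbours on chromosome 11, and Tgtp1 and Tgtp2 each carried a GAS match followed after 2 bases by an ISRE match. That joined motif (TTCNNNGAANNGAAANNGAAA, searched on both strands after these sequences were seen) was in 5 of all 32851 promoters, those of Igtp, Irgm2, Tgtp1, Tgtp2 and Gm12185. Behind the called probe sets whose promoters are not printed, Ifi211 held 1 ISRE match 37 bases before the start, and Ifi47, Olfr56, Trim30b and Gm38525 held neither motif. H2-K1 and H2-D1 held neither motif in this window too. A match is only a run of letters. The search took exact letters, so the lack of a match does not show that a promoter has no such element. The promoter of Ifi204 is named only.

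In B10.Q macrophages 4 of the 23 probe sets rose 2 h after IFNα and none fell, where 0.465% of all probe sets were called higher and 0.00401% lower (limma, Benjamini-Hochberg adjusted p under 0.05 over all 24922). They were Oas1a/Oas1g, Ifi211/Ifi204, Irgm2/Igtp and Isg15/Gm9706. At 5 h 4 rose and none fell, against 0.477% and 0.00401% of all: Oas1a/Oas1g, Ifi211/Ifi204, Gm38525/Trim30b and Trim5/Trim12c. Both times share the vehicle pair. Set directly against 2 h, the 5 h arrays gave 0 calls and 0 unadjusted p under 0.05 among the 23. Over all 24922 probe sets 0.00401% were called higher and 1354 had an unadjusted p under 0.05. Differences above 0 were read for 20 of 23 at 2 h, with a median of 0.56 against -0.00069 over all probe sets, and for 19 of 23 at 5 h, with a median of 0.40 against -0.014. In KO macrophages 0 of 23 were called, as were 0 of all probe sets. There 4 of 23 members, and 932 of all, had an unadjusted p under 0.05, and 8 of 23 read lower with IFNα without overlap, as did 10.2% of all.

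OAS1 proteins make 2′-5′ oligoadenylates on double-stranded RNA, which activate RNase L. The Oas1a/Oas1g probe set (10533246) read 7.60 and 7.53 in B10.Q macrophages with vehicle, 10.29 and 9.87 at 2 h, and 10.21 and 10.25 at 5 h. KO macrophages read 7.48 and 7.73 without IFNα and 7.62 and 7.37 with it. T cells read 7.09 and 7.11 with vehicle, 7.69 and 7.22 at 2 h, and 7.17 and 6.90 at 5 h. The 4 treated B10.Q macrophage arrays thus stood above all the other 12. The rise was 2.52 ± 0.15 (SE, n = 2) at 2 h, 5.72-fold (adjusted p = 4.97e-05, limma), and 2.67 ± 0.15 at 5 h, 6.35-fold (adjusted p = 2.72e-05). It stayed called under each of the 12 alternatives run for either time.

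Ifi204 encodes p204, a PYHIN protein that takes part in sensing DNA, and Ifi211 is a neighbour of the same family. Their probe set (10360382) read 9.67 and 9.43 in B10.Q macrophages with vehicle, 11.92 and 11.26 at 2 h and 11.78 and 11.71 at 5 h. KO macrophages read 9.61 and 9.62 without IFNα and 9.24 and 9.91 with it, so both lines began at like levels. T cells read 4.94 and 4.60 with vehicle, 5.81 and 5.22 at 2 h and 5.36 and 5.32 at 5 h, far below every macrophage array. The rise in B10.Q macrophages was 2.04 ± 0.23 at 2 h (4.12-fold, adjusted p = 0.00307, limma) and 2.20 ± 0.23 at 5 h (4.59-fold, adjusted p = 0.0014). It stayed called in 12 of 12 alternatives at each time. In T cells the difference at 2 h was 0.74 ± 0.19 (adjusted p = 0.623), and the array that read 5.81 is the one with macrophage markers at 8.87. Their part in the T-cell value was not tested.

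Isg15 encodes a ubiquitin-like protein that is joined to other proteins after interferon. Its probe set (10451287) also lists Gm9706, a pseudogene on another chromosome. It read 6.79 and 6.86 in B10.Q macrophages with vehicle, 7.90 and 7.42 at 2 h and 7.51 and 7.53 at 5 h. KO macrophages read 6.95 and 7.02 without IFNα and 6.96 and 6.83 with it. T cells read 7.08 and 7.13 with vehicle, 7.87 and 7.43 at 2 h and 7.12 and 6.94 at 5 h. The treated B10.Q macrophage arrays and both T-cell arrays at 2 h were above their vehicle arrays, and T cells at 5 h overlapped theirs. The rise in macrophages was 0.83 ± 0.15 at 2 h (1.78-fold, adjusted p = 0.0378, limma). It was lost without the IFNα 2 h array 1, or without either vehicle array, where adjusted p lay between 0.267 and 0.393. The difference at 5 h was 0.69 ± 0.15 (adjusted p = 0.114).

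**Figure D1:**
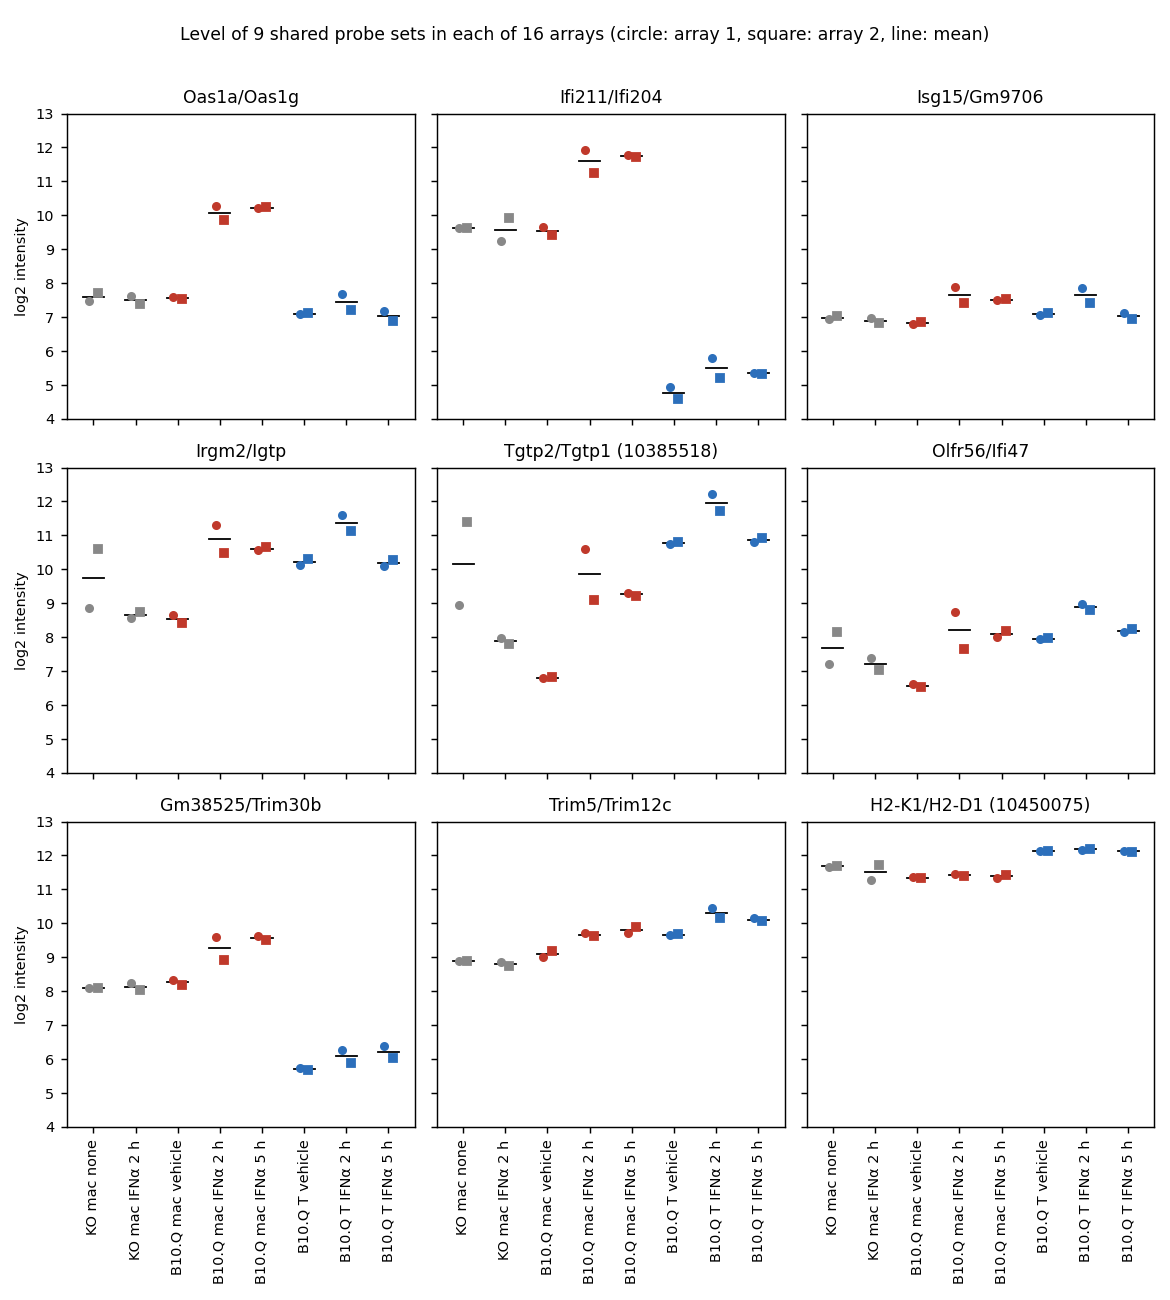
Level (log2 intensity, vertical axis) of 9 shared probe sets in 16 arrays grouped by line, cell type and treatment (mac, macrophage); circles are array 1, squares array 2 and lines the mean of the pair. Oas1a/Oas1g stood at 9.87 to 10.29 in treated B10.Q macrophages and at 7.73 or below elsewhere, while H2-K1/H2-D1 differed by cell type more than by treatment.

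The 6 GTPase probe sets cover guanylate-binding proteins (Gbp) and immunity-related GTPases (Irgm2, Igtp, Tgtp1, Tgtp2, and Ifi47, also called IRG47), which act on the vacuoles of intracellular pathogens. All 6 read higher in both treated B10.Q macrophage arrays than in both vehicle arrays at 2 h and at 5 h, as did 19.4% and 16.2% of all probe sets. Only Irgm2/Igtp (10376326) was called, at 2 h. It read 8.64 and 8.43 with vehicle, 11.31 and 10.47 at 2 h and 10.56 and 10.65 at 5 h. KO macrophages read 8.87 and 10.59 without IFNα and 8.57 and 8.73 with it. The difference in B10.Q macrophages was 2.35 ± 0.43 at 2 h (5.11-fold, adjusted p = 0.0497, limma), held in 2 of 12 alternatives (adjusted p from 0.00294 to 0.877) and lost when any 1 of the 4 arrays was left out. At 5 h it was 2.07 ± 0.43 (adjusted p = 0.107).

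The Tgtp2/Tgtp1 probe sets gave the widest differences, with the widest errors. Probe set 10385518 read 6.79 and 6.83 in B10.Q macrophages with vehicle, 10.61 and 9.10 at 2 h, and 9.31 and 9.23 at 5 h. It read 8.94 and 11.40 in KO macrophages without IFNα and 7.99 and 7.81 with it. Its difference in B10.Q macrophages was 3.04 ± 0.64 at 2 h (adjusted p = 0.103, limma) and 2.46 ± 0.64 at 5 h (adjusted p = 0.317). The other Tgtp2/Tgtp1 probe set, 10385533, lay within 0.0427 to 0.32 of it on every array. The error is shared by all groups of the fit, and the KO pair without IFNα is 1 of those groups. For 10385518 the SD was 1.74 in that pair and 1.07 in B10.Q macrophages at 2 h. It was 0.055 in B10.Q macrophages at 5 h and 0.024 with vehicle, so the error at 5 h came mostly from other groups.

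Olfr56/Ifi47 (10375515) differed by 1.62 ± 0.33 at 2 h (adjusted p = 0.0924, limma) and 1.52 ± 0.33 at 5 h (adjusted p = 0.134). The probe set of 6 genes, Gbp11/Gbp10/Gbp9/Gbp6/Gbp8/Gbp4, differed by 1.34 ± 0.40 and 1.38 ± 0.40. Gbp2/Gbp2b differed least, by 0.61 ± 0.32 (95% interval -0.096 to 1.31) and 0.40 ± 0.32. None of these 3 passed.

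**Figure D2:**
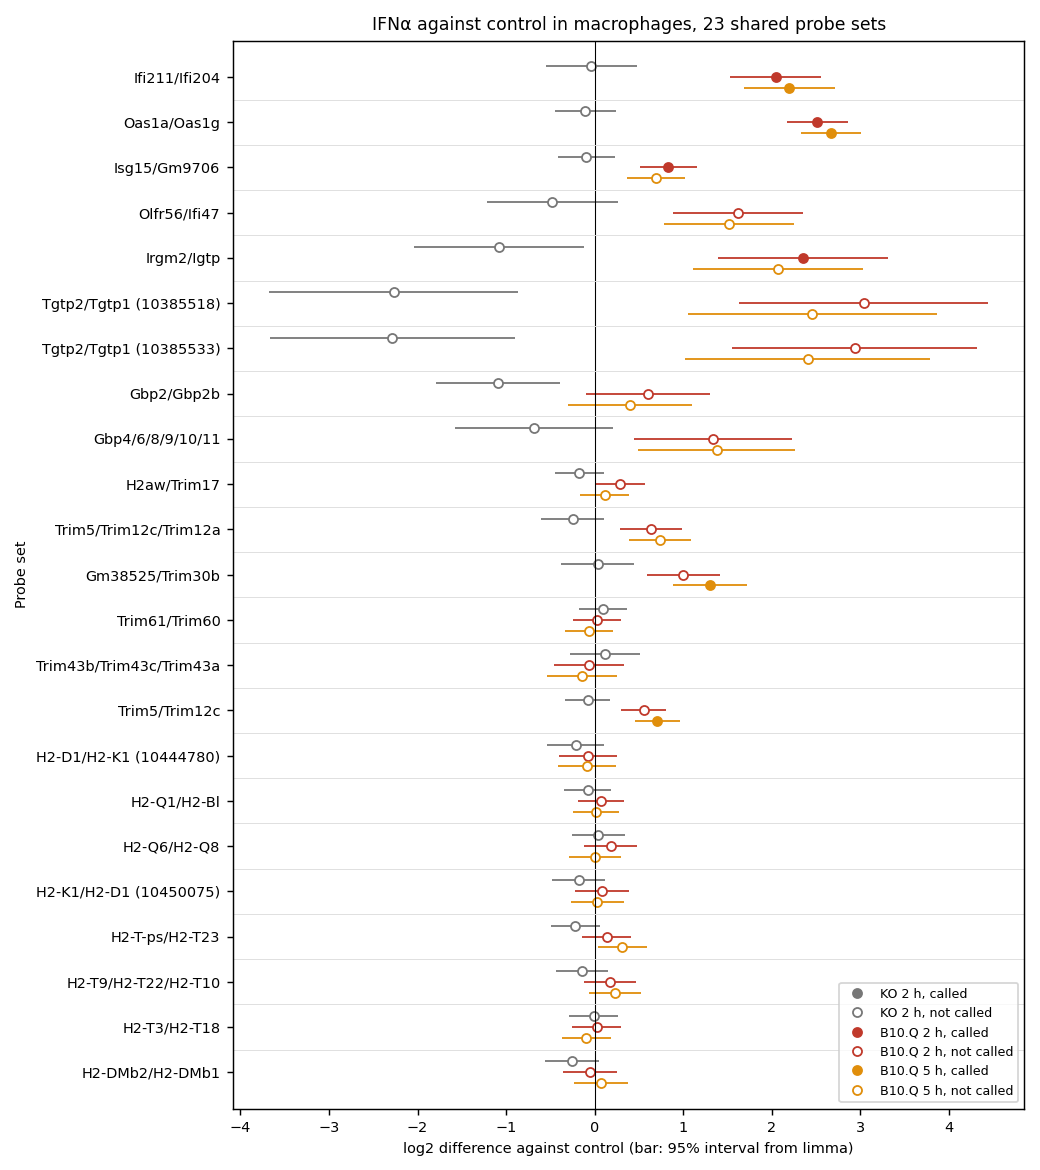
Log2 difference of IFNα against control (horizontal axis) for the 23 probe sets (vertical axis) in KO macrophages at 2 h and B10.Q macrophages at 2 h and 5 h; filled points passed adjusted p under 0.05 and bars are 95% intervals from limma. Called points lie between 0.71 and 2.67, all in B10.Q macrophages, and the GTPase intervals are the widest.

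TRIM proteins are ubiquitin ligases. Trim5 and its duplicates lie in a cluster on chromosome 7, and Trim30b lies in the same cluster. Gm38525/Trim30b (10566350) read 8.33 and 8.19 in B10.Q macrophages with vehicle, 9.60 and 8.92 at 2 h and 9.62 and 9.51 at 5 h. KO macrophages read 8.10 and 8.09 without IFNα and 8.23 and 8.03 with it. T cells read from 5.69 to 6.38. The rise at 5 h was 1.30 ± 0.19 (2.47-fold, adjusted p = 0.0106, limma), and at 2 h the difference was 1.00 ± 0.19 (adjusted p = 0.0538).

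Trim5/Trim12c (10601581) read 9.01 and 9.19 with vehicle, 9.70 and 9.61 at 2 h and 9.72 and 9.89 at 5 h in B10.Q macrophages. KO macrophages stayed between 8.74 and 8.88, and T cells read 9.64 and 9.68 with vehicle, 10.45 and 10.16 at 2 h and 10.15 and 10.07 at 5 h. The rise in macrophages at 5 h was 0.71 ± 0.12 (1.63-fold, adjusted p = 0.0225, limma). Trim5/Trim12c/Trim12a gave 0.74 ± 0.16 at 5 h (adjusted p = 0.131). Both 5 h TRIM calls were lost when any 1 of the 4 arrays compared was left out, so that 2 of 23 probe sets remained called. The other 3 TRIM probe sets, H2aw/Trim17, Trim61/Trim60 and Trim43b/Trim43c/Trim43a, differed by -0.14 to 0.29 in B10.Q macrophages, none called. Over all 16 arrays these read 8.25 to 8.72, 6.00 to 6.33 and 4.82 to 5.50. Trim61 and Trim60 overlap in the annotation and were given the same promoter window.

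The 7 MHC class I probe sets, for the molecules that show peptides to CD8 T cells and NK cells, gave 0 calls in either IFNα comparison of B10.Q macrophages. Their differences ran from -0.074 to 0.18 at 2 h and from -0.094 to 0.31 at 5 h. H2-K1/LOC547349/H2-D1 (10450075), the classical heavy chains, read 11.33 to 11.46 in the 6 B10.Q macrophage arrays, a difference at 2 h of 0.082 with a 95% interval of -0.22 to 0.38. Its partner H2-D1/LOC547349/H2-K1 (10444780) read 12.63 to 12.78 there, with a difference of -0.074 (-0.40 to 0.25). The largest at 5 h was H2-T-ps/H2-T23, which includes the gene of Qa-1, an inhibitory ligand for NK cells, at 0.31 ± 0.13 (adjusted p = 1, limma). Over all 16 arrays H2-T-ps/H2-T23 read 11.12 to 11.75, H2-Q1/H2-Bl 7.99 to 8.48 and H2-T3/H2-T18 5.95 to 6.50. H2-Q6/H2-Q8 and H2-T9/H2-T22/H2-T10 had wider ranges, 8.64 to 11.58 and 9.58 to 11.12, with the T cells at the upper end. The MHC class II probe set H2-DMb2/H2-DMb1, for the chain of the peptide exchange factor H2-DM, differed by -0.054 at 2 h and 0.072 at 5 h, and read 8.45 to 8.92 in macrophages and 6.95 to 7.39 in T cells. H2 alleles differ between the B10.Q and KO lines, and probes can match alleles unequally, so effects of line and of allele on these levels cannot be told apart.

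Of the 48 member symbols 10 had probe sets of their own, and 2 of these 10 rose in B10.Q macrophages at 2 h and at 5 h. The Oas1a probe set rose by 1.72 ± 0.15 at 2 h (adjusted p = 0.000754, limma) and 1.62 ± 0.15 at 5 h (adjusted p = 0.000846) in B10.Q macrophages. Trim12c alone rose by 0.78 ± 0.13 at 2 h and 0.92 ± 0.13 at 5 h (adjusted p = 0.0256 and 0.00967, limma). Of its shared probe sets, Trim5/Trim12c was not called at 2 h, and Trim5/Trim12c/Trim12a was called at neither time. The other 8 (Trim12a, Gbp2b, Gbp4, Gbp8, Gbp9, Gbp11, H2-T10 and H2-Bl) were not called at either time, with differences at 2 h from -0.063 for H2-Bl and 0.018 for H2-T10 to 1.30 ± 0.41 for Gbp9. Oas1b, a relative of Oas1a, rose by 2.16 ± 0.21 at 2 h, Ifi203 by 1.38 ± 0.20 and Irgm1, a sister of Irgm2, by 2.37 ± 0.37. Trim30a and Trim30d rose by 0.95 ± 0.15 and 1.27 ± 0.17. H2-T24 rose by 1.94 ± 0.20, alone among 29 single-gene H2- probe sets. In all 33 of 155 single-gene probe sets with the same name stems rose at 2 h and 32 at 5 h: at 2 h 6 of 11 Oas, 10 of 32 Ifi and Isg, 5 of 61 Trim, 1 of 9 GTPases and 10 of 13 Slfn and Phf11. In T cells 9 of the 155 rose at 2 h and 0 at 5 h, and in KO macrophages 0 were called. Of 15 measured genes of interferon signalling 4 rose at 2 h, Irf7, Stat2, Irf9 and Usp18.

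The response at 2 h was compared between the lines as a difference of differences. It was larger in B10.Q than in KO macrophages for 4 of 23 probe sets, against 0.253% of all. These were Oas1a/Oas1g at 2.62 ± 0.22 (adjusted p = 0.00108, limma), Ifi211/Ifi204 at 2.08 ± 0.33 (adjusted p = 0.0367) and the Tgtp2/Tgtp1 pair at 5.31 ± 0.90 and 5.22 ± 0.88 (adjusted p = 0.0486 for both). The Oas1a/Oas1g call held in 16 of 16 alternatives, with values from 2.41 to 2.83. For Ifi211/Ifi204 it held in 7 of 16 and for Tgtp2/Tgtp1 in 5 of 16.

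The Tgtp2/Tgtp1 difference adds higher readings in treated B10.Q macrophages to lower readings in treated than in untreated KO macrophages, -2.27 ± 0.64 (unadjusted p = 0.00466, adjusted p = 0.901, limma). Array 2 of the KO pair without IFNα stood apart from array 1. It was the highest of the 4 KO arrays in all 6 GTPase probe sets and in 12 of the 23, as in 19.3% of all probe sets. It exceeded array 1 by 2.46 and 2.41 for the Tgtp2/Tgtp1 pair, 1.73 for Irgm2/Igtp, 1.44 for the 6-gene Gbp probe set, 1.15 for Gbp2/Gbp2b and 0.92 for Olfr56/Ifi47. For Oas1a/Oas1g array 2 read 7.73 against 7.48 on array 1, for Isg15/Gm9706 7.02 against 6.95 and for Ifi211/Ifi204 9.62 against 9.61. On the same array Irf1 read 10.61 against 9.18 to 9.50 on the other 3 KO arrays. Ciita, the regulator of MHC class II genes, read 8.63 against 7.13 to 7.62. Irf9 read 10.27 there against 9.11 to 9.56, Irf7 8.92 against 7.87 to 8.42 and Oasl2 8.52 against 7.46 to 8.02. Ifih1 at 8.93 and Ifi203 at 11.26 lay within the other 3, at 8.86 to 9.02 and 10.93 to 11.36. Without that array the Tgtp2/Tgtp1 difference between lines was 4.08 and 4.02 (adjusted p = 0.0586 for 10385518, limma), and 1 of 23 probe sets was called. Its part in the Tgtp result beyond this was not tested.

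**Figure D3:**
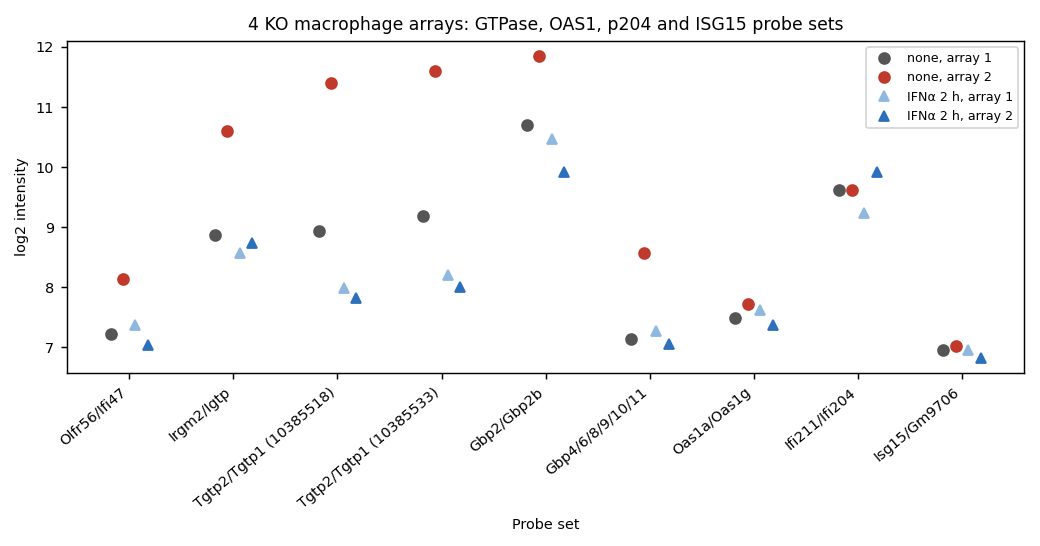
Level (log2 intensity, vertical axis) of 9 probe sets (horizontal axis) in the 4 KO macrophage arrays; circles are arrays without IFNα and triangles arrays with it. Array 2 without IFNα lies highest for the 6 GTPase probe sets, with 11.40 for Tgtp2/Tgtp1 10385518 against 7.81 to 8.94 on the other 3 arrays. It is also the highest, but close to the others, for Oas1a/Oas1g and Isg15/Gm9706.

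Untreated macrophages of the lines here means B10.Q with vehicle and KO titled without IFNα, so the controls were unlike. They gave 0 calls among the 23, against 0.116% of all probe sets higher and 0.12% lower. Of the 23, 8 had an unadjusted p under 0.05, as did 2550 of all 24922 probe sets. Without overlap 13 of the 23 read lower in B10.Q, as did 36.1% of all. The Tgtp2/Tgtp1 pair read lower in B10.Q, -3.36 ± 0.64 and -3.32 ± 0.63 (adjusted p = 0.0777 and 0.0765, limma). For 10385518 both KO arrays, at 8.94 and 11.40, stood above both B10.Q arrays, at 6.79 and 6.83. Leaving out KO array 1 changed how many of the 23 were called, and leaving out any other array did not.

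In CD4 T cells 1 of 23 rose at 2 h, against 0.0923% of all probe sets, and 0 at 5 h, against 0.00803%. At 5 h 4 of 23 had an unadjusted p under 0.05, as did 1067 of all 24922. The probe set called at 2 h was Olfr56/Ifi47. It read 7.96 and 7.96 with vehicle, 8.98 and 8.79 at 2 h and 8.15 and 8.24 at 5 h. B10.Q macrophages read 6.61 and 6.54 with vehicle, 8.73 and 7.66 at 2 h and 8.0 and 8.19 at 5 h, and KO macrophages 7.22 and 8.14 without IFNα and 7.37 and 7.04 with it. The rise was 0.93 ± 0.10 (1.90-fold, adjusted p = 0.0339, limma). The T-cell reading at 2 h was above every macrophage reading of this probe set, while the macrophage markers were raised in these 2 arrays. The call held in 5 of 11 alternatives. Among arrays left out, it was lost without either vehicle array, at adjusted p = 0.541 and 0.511.

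The other GTPase probe sets pointed the same way at 2 h without a call. Tgtp2/Tgtp1 10385518 read 10.74 and 10.81 with vehicle, 12.21 and 11.71 at 2 h and 10.79 and 10.93 at 5 h, a difference at 2 h of 1.19 ± 0.16 (adjusted p = 0.0746, limma). Irgm2/Igtp read 10.12 and 10.31 with vehicle, 11.61 and 11.12 at 2 h and 10.10 and 10.28 at 5 h, differing by 1.15 ± 0.17 (adjusted p = 0.0833). All 6 GTPase probe sets lay above both vehicle arrays at 2 h, as did 15.5% of all probe sets. At 5 h 10 of 23 lay above both vehicle arrays, against 19.2% of all, and 0 was called. Against 2 h 0 was called too (0.00401% of all higher). There 9 of 23 had an unadjusted p under 0.05, as did 1943 of all 24922. Without overlap 11 of 23 read lower, against 16.9% of all. All 6 GTPase probe sets were among those 11, and Irgm2/Igtp differed from vehicle by -0.030 (95% interval -0.41 to 0.35). Leaving out the IFNα 2 h array 2 gave 10 calls of 23, and 1074 over all probe sets, while leaving out array 1 gave 3.

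**Figure D4:**
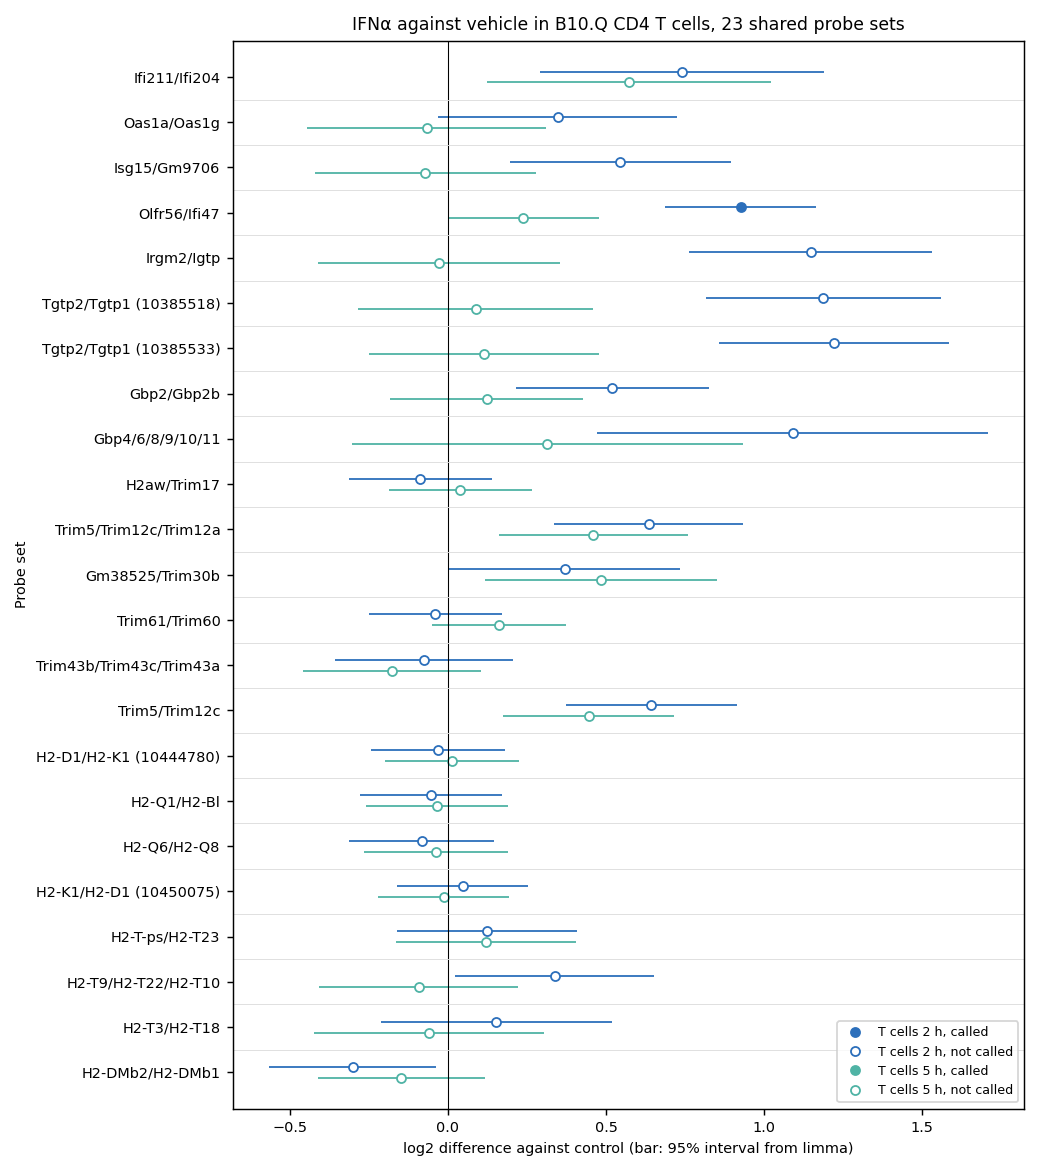
Log2 difference of IFNα against vehicle (horizontal axis) in B10.Q CD4 T cells at 2 h and 5 h for the 23 probe sets (vertical axis); filled points passed adjusted p under 0.05 and bars are 95% intervals from limma. Olfr56/Ifi47 at 2 h, at 0.93, is the single filled point, and the 5 h points lie between -0.18 and 0.57.

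Responses differed between cell types for Oas1a/Oas1g, which in macrophages exceeded T cells by 2.17 ± 0.23 at 2 h (adjusted p = 0.00421, limma) and 2.73 ± 0.23 at 5 h (adjusted p = 0.000562), called in all 16 alternatives at each time. Irgm2/Igtp differed by 2.10 ± 0.31 at 5 h (adjusted p = 0.0243, limma), a call held in 5 of 16 alternatives and lost when any 1 of the 8 arrays was left out. These were 1 of 23 at 2 h and 2 of 23 at 5 h, against 0.0281% and 0.104% of all probe sets called higher and 0.00401% lower at each time. For Olfr56/Ifi47 the difference at 2 h was 0.70 with a 95% interval of -0.022 to 1.41 (not called).

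With vehicle alone, macrophages and T cells differed in 14 of the 23 probe sets, 4 higher and 10 lower in macrophages, where 16.4% and 22.1% of all probe sets were called higher and lower. Fewer cells of a type and less RNA per cell cannot be told apart in such bulk samples. The widest was Ifi211/Ifi204, higher in macrophages by 4.78 ± 0.21 (27.4-fold). Gm38525/Trim30b was higher by 2.54 ± 0.19 and H2-DMb2/H2-DMb1 by 1.24 ± 0.11. Lower in macrophages were both Tgtp2/Tgtp1 probe sets, by -3.96 ± 0.33 and -3.77 ± 0.32, the 6-gene Gbp probe set, by -3.05 ± 0.30, Irgm2/Igtp, by -1.68 ± 0.22, and Olfr56/Ifi47, by -1.38 ± 0.23.

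Among class I probe sets H2-Q6/H2-Q8 was lower in macrophages by -2.79 ± 0.11, reading 8.79 and 8.64 in macrophages and 11.42 and 11.58 in T cells. H2-T9/H2-T22/H2-T10 was lower by -0.87 ± 0.13, and H2-T10 alone by -1.11 ± 0.15 (adjusted p = 4.29e-05, limma). The other 4 called were H2-K1/LOC547349/H2-D1 (10450075) and both Trim5/Trim12c probe sets, lower, and Oas1a/Oas1g, higher. The second probe set with the same class I symbols, H2-D1/LOC547349/H2-K1 (10444780), was not called and pointed the other way, at 0.17 ± 0.090 (95% interval -0.025 to 0.36), so the pair gave no single direction.

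For Gbp2/Gbp2b on chromosome 3 the shared and single probe sets gave different results. Gbp2/Gbp2b did not pass between the cell types, at 0.25 ± 0.16 (95% interval -0.095 to 0.60), yet the Gbp2b probe set alone was higher in macrophages by 3.75 ± 0.19 (adjusted p = 1.74e-09, limma). The Gbp2b probe set read 10.66 and 10.30 in B10.Q macrophages and 6.75 and 6.71 in T cells with vehicle. For the 6-gene probe set on chromosome 5 all 4 single genes measured were lower in macrophages, as was the shared probe set at -3.05: Gbp4 by -4.98 ± 0.34, Gbp8 by -2.86 ± 0.23, Gbp9 by -1.38 ± 0.35 and Gbp11 by -1.39 ± 0.29.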

How the data were processed

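Per the labels, RNA of sorted cells was hybridised to Affymetrix Mouse Gene 1.0 ST arrays, and the authors deposited linear RMA intensity values, 1 for each probe set and array. Per the submitters' processing notes the tools were Affymetrix Power Tools and RMA; versions are not given in the sources used here. Here log2 of each deposited intensity was used with no further scaling or filter. Groups followed the labels. limma 3.58.1 in R 4.3.3 (lmFit, eBayes) was run on all 24922 probe sets in 3 fits: 10 macrophage arrays, 6 T-cell arrays and 12 B10.Q arrays. P-values were two-sided and Benjamini-Hochberg adjusted within each of 12 comparisons, called under 0.05. Errors are standard errors, n is 2 arrays a group, and an array has no read depth, so their number limits the precision. Exact permutation of 2 against 2 cannot go below 0.333. The arrays of a group are not said to come from separate animals, so p measures spread between samples, which may be technical.

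The members and gene lists were chosen with earlier results of these data known. The naming rule was: every member once, values in each array for members called in an IFNα comparison, the 10 largest of those called by level, and at most 3 single-gene relatives a family; the Tgtp pair is given in each array too, chosen after its values were seen. Symbols came from the platform annotation, promoters from RefSeq GRCm38.p6. Alternatives were filters, quantile and median scaling, trend, replicate block, other sample sets and leaving out each array. In simulated data the fit recovered 79.6% of 2-fold changes for B10.Q macrophages at 2 h, 77.6% for KO and 70.8% for T cells at 2 h. It recovered 52.4% for the 2 h response of B10.Q against KO (7.01% of its calls false) and 67.2% for that of macrophages against T cells. The changed probe sets were drawn at random from all, so these rates do not describe members with wide errors such as the GTPases.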

Additional observations from a re-analysis of the deposited data

Results flagged for a closer look

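The values here were singled out because a response differed between groups by a test of the difference itself. Between the lines at 2 h, B10.Q macrophages exceeded KO macrophages on the log2 scale by 2.62 for Oas1a/Oas1g, 2.08 for Ifi211/Ifi204, and 5.31 and 5.22 for the 2 Tgtp2/Tgtp1 probe sets. All 4 were called by limma after Benjamini-Hochberg adjustment, and for the Tgtp2/Tgtp1 pair the KO pair without IFNα differed by 2.46 and 2.41 between its own arrays. Between the cell types, B10.Q macrophages exceeded T cells by 2.17 for Oas1a/Oas1g at 2 h, by 2.73 for Oas1a/Oas1g at 5 h and by 2.10 for Irgm2/Igtp at 5 h. Line, age, H2 haplotype and kind of control cannot be told apart in the first set.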

How the results depend on the processing

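Counts of the 23 probe sets called moved as follows. The share over all probe sets is not given beside them, so they describe only how stable the calls were. In B10.Q macrophages at 2 h (4) they were 2 with the 70th percentile filter, 9 with all 16 arrays in 1 fit and 8 with only the groups compared; at 5 h (4) they were 2 after quantile normalization, 7 with 16 arrays and 11 with only the groups compared. For untreated lines (0) all 16 arrays gave 2. For the response of B10.Q against KO (4) both filters and the trended robust fit gave 2, and quantile normalization, median subtraction, the replicate block and only the groups compared gave 1. In T cells at 2 h (1) the 70th percentile filter, quantile normalization, the replicate block and only the groups compared gave 0, median subtraction and the trended fit 2. For macrophages against T cells at 5 h (2) quantile normalization, the trended fit and 16 arrays gave 1, only the groups compared 8.

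Leaving out 1 array gave 2 to 5 at 2 h in macrophages (2 without IFNα array 1 or either vehicle array), 2 at 5 h, 0 to 1 in KO (1 without IFNα array 2), 0 to 3 for untreated lines (3 without KO untreated array 1), 1 to 7 for B10.Q against KO (7 without B10.Q IFNα 2 h array 2; 1 without its array 1, either vehicle array or KO untreated array 2), 0 to 10 in T cells at 2 h, 0 to 7 for T cells at 5 h against 2 h (7 without IFNα 2 h array 2), and 1 to 6 and 1 to 1 for macrophages against T cells at 2 h and 5 h (6 without B10.Q macrophage IFNα 2 h array 2). An arm left with 1 array was assumed to vary like the others. Calls over all probe sets moved in these fits too. The 1 call in KO without IFNα array 2 came with many calls over all probe sets, where the main fit gave 0. These counts therefore describe stability and are no result about the shared probe sets.

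Small uncalled values turned sign: in T cells at 5 h Irgm2/Igtp from -0.13 to 0.066 (0.057 and 0.066 without IFNα array 1 and vehicle array 2), Isg15/Gm9706 from -0.16 to 0.017 and Oas1a/Oas1g from -0.20 to 0.070 (above 0 without IFNα array 2); for macrophages against T cells at 2 h Trim5/Trim12c from -0.23 to 0.057 (0.0023 and 0.057 without macrophage vehicle array 2 and T-cell IFNα array 1). The cause was not tested. Single values were followed in this way only for members called in an IFNα comparison or a difference of responses. No scaling moved the median of all probe sets by 0.1 or turned a called member. Rescaling did turn the sign of uncalled members, at most 4 in a comparison (B10.Q macrophages at 5 h against 2 h, quantile normalization).

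Replicate numbers do not pair the samples: with 2 arrays a group no pairing can be shown, and correlations of same-numbered deviations ran from -0.17 to 0.10. The replicate block changed the counts of calls given above for B10.Q against KO and T cells at 2 h. For KO arrays, whose numbers ran opposite (-0.17), the crossed block, added after seeing the data, gave 0 calls. Precision is limited by 2 arrays a group, and 3 members lay under every array's median.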
